A study of Mus musculus with 48 samples.

Results

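The 10 lipid handling genes described here were *Apoe*, *Lpl*, *Cd36*, *Fabp4*, *Fabp5*, *Plin2*, *Abca1*, *Abcg1*, *Trem2*, and *Pltp*. They were taken by name from the 34586 genes of the UMI count table, and all 10 were present in it. Single-cell RNA was profiled by Seq-Well, in which a barcoded bead captures the poly(A) RNA of a cell in a microwell and each captured molecule is counted once by its unique molecular identifier (UMI). The 48 samples came from joint, lung, muscle, skin, and spleen of 10 male DBA1/J mice, with 3 healthy and 5 arthritic mice for joint and 4 healthy and 6 arthritic mice for each other organ. The arthritic mice had collagen-induced arthritis (CIA) after injection of bovine collagen II with complete Freund's adjuvant and a boost with incomplete Freund's adjuvant, whereas the healthy mice were given saline. Arthritis scores were 8 in mice S1, S2, and S3, 4 to 5 in S5, 3 to 4 in S6, and 2 to 3 in S8. Sample titles carried the prefix 2CIA for S1, S2, S3, and healthy mouse H3, and the prefix CIA for S5, S6, S8, and healthy mice H4, H6, and H7, so severity and prefix cannot be told apart among the arthritic mice. All tissue had been frozen. Spleen was only strained and lysed, the other organs were digested before single cells were taken, and a part of the muscle samples was treated to lyse red cells. The organ and the way its cells were freed cannot be told apart.

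These genes move fat between the blood, the cell surface, and the cell's stores. Lipoprotein lipase (LPL) frees fatty acids from circulating triglyceride, CD36 takes up fatty acids and oxidized lipoproteins, FABP4 and FABP5 carry fatty acids inside the cell, and PLIN2 coats lipid droplets. ABCA1 and ABCG1 export cholesterol to lipoprotein particles, APOE and the transfer protein PLTP act on those particles, and TREM2 is a lipid-sensing receptor of macrophages. In the lung, alveolar macrophages are known for clearing the lipids of surfactant, and the endothelium of muscle is known for passing fatty acids to the tissue.

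The gene bodies lie on mouse GRCm38 chromosomes 7 (*Apoe*, 19696109 to 19699188), 8 (*Lpl*, 68880491 to 68907448), 5 (*Cd36*, 17781690 to 17888801), 3 (*Fabp4*, 10204088 to 10208576, and *Fabp5*, 10012548 to 10016607), 4 (*Plin2*, 86648386 to 86670060, and *Abca1*, 53030787 to 53159895), 17 (*Abcg1*, 31057675 to 31117988, and *Trem2*, 48346401 to 48354147), and 2 (*Pltp*, 164839518 to 164857711). *Cd36* and *Plin2* were higher in macrophages of the lung than of muscle, whereas *Apoe* was lower there. *Trem2* had its highest median over the mice used in macrophages of the joint, on few UMIs. The start-site sequences of these 4 members are given for that reason. Each runs from 250 bases before to 50 bases after a RefSeq start site of GRCm38.p6, on the strand of the gene, which is the minus strand for *Cd36* (chr5:17835847-17836146), *Plin2* (chr4:86670010-86670309), and *Apoe* (chr7:19699139-19699438) and the plus strand for *Trem2* (chr17:48346151-48346450). The *Cd36* start lies inside the annotated gene body. Capitals mark AGGTCA or its complement TGACCT, the core of elements for nuclear receptors of lipid metabolism, and GAGGAA or its complement TTCCTC, the core of elements for the myeloid factor PU.1.
Cd36: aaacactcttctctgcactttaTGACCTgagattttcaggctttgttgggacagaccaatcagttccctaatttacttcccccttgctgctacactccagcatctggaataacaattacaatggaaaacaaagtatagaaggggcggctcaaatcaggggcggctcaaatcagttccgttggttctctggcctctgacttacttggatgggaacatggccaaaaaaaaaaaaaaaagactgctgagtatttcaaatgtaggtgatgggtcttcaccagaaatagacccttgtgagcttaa
Plin2: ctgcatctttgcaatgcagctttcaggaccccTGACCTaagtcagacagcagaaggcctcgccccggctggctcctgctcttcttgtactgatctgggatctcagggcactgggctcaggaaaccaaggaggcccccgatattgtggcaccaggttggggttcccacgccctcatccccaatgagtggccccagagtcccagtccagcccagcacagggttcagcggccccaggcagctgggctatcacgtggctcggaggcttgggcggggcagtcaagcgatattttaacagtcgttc
Apoe: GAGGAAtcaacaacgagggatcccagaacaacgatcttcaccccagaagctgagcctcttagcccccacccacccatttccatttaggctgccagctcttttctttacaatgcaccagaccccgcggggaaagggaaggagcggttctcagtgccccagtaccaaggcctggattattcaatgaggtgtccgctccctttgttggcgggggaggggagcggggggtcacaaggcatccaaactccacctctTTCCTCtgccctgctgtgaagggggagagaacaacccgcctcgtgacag
Trem2: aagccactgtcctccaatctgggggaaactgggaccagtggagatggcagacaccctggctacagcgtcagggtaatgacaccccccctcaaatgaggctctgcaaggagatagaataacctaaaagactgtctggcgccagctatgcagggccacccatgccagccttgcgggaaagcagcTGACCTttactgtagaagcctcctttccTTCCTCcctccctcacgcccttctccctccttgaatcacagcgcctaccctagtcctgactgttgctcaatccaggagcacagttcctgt
RefSeq windows were found for 6 of the 10 members and numbered 8, since *Apoe* had several starts. The first motif was present in 3 of these windows (*Cd36*, *Plin2*, and *Trem2*), and in 16.3% of all 32851 windows of this length. The second was present in 4 of the 8 windows, against 28.3% of all windows. No base was shared between the 2 motifs in any of the 8 windows. These matches describe the letters only.

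The deposited cell type labels gave 1331 macrophages, 1322 fibroblasts, and 553 endothelial cells among 12096 labelled cells of 13240. Counts were summed per mouse, organ, and label, and levels are given as counts per 1000000 UMIs of that sum (CPM). A sum was used with at least 10 cells, or at least 5 for endothelial cells. The sums held 11900 to 131720 UMIs for macrophages of joint, lung, or muscle, 10173 to 282053 for fibroblasts, and 5347 to 164466 for endothelial cells of joint, muscle, or skin. The summed level of the study's macrophage markers was 8991 to 31787 CPM in macrophages of joint, lung, and muscle, against 222 to 2768 CPM in fibroblasts. The fibroblast markers were at 8607 to 56564 CPM in fibroblasts. *Cdh5* and *Pecam1* together were at 255 to 1309 CPM in endothelial cells of joint, muscle, and skin, against 0 to 98.3 CPM in fibroblasts. Since 59 barcodes occurred in more than 1 library, a few cells may be shared between libraries. In sums of this kind, fewer cells of a subtype and less RNA per cell cannot be told apart.

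With the cells of all organs pooled, most members were highest in macrophages or endothelial cells. In macrophages the pooled levels of 5 members were the highest among the 13 labels, those of *Lpl* (341 CPM), *Plin2* (359 CPM, 325 to 396), *Abcg1* (319 CPM), *Trem2* (92.9 CPM, exact Poisson interval 76.0 to 112), and *Pltp* (55.7 CPM, 42.8 to 71.3). Endothelial cells had the highest *Fabp4* (5499 CPM), *Cd36* (331 CPM, close to the 315 CPM of macrophages), and *Abca1* (55.2 CPM, 38.0 to 77.6). *Apoe* and *Fabp5* were highest in neither of these, but in the basal III cells, marked by the keratins *Krt14* and *Krt5*, at 1889 and 629 CPM. *Apoe* was at 476 CPM in fibroblasts, 439 CPM in macrophages, 393 CPM in endothelial cells, and 74.2 CPM in T cells. *Plin2* of basal III cells, at 344 CPM (305 to 387), overlapped with that of macrophages. The place of *Lpl* depended on the organ, since macrophages had 611 CPM in lung, 255 CPM in joint, and 72.1 CPM in muscle, whereas fibroblasts had 468 CPM in muscle, 134 CPM in joint, and 123 CPM in skin. *Plin2* was at 565 CPM in lung but 225 and 202 CPM in joint and muscle macrophages, against 378 CPM in skin basal III cells. *Pltp* was at 126 CPM in joint but 24.3 and 30.9 CPM in lung and muscle macrophages. Fibroblasts had 43.8 CPM of *Pltp* in joint and 36.6 CPM in muscle. The intervals given with the pooled levels have 95% confidence and cover counting error only.

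**Figure D1:**
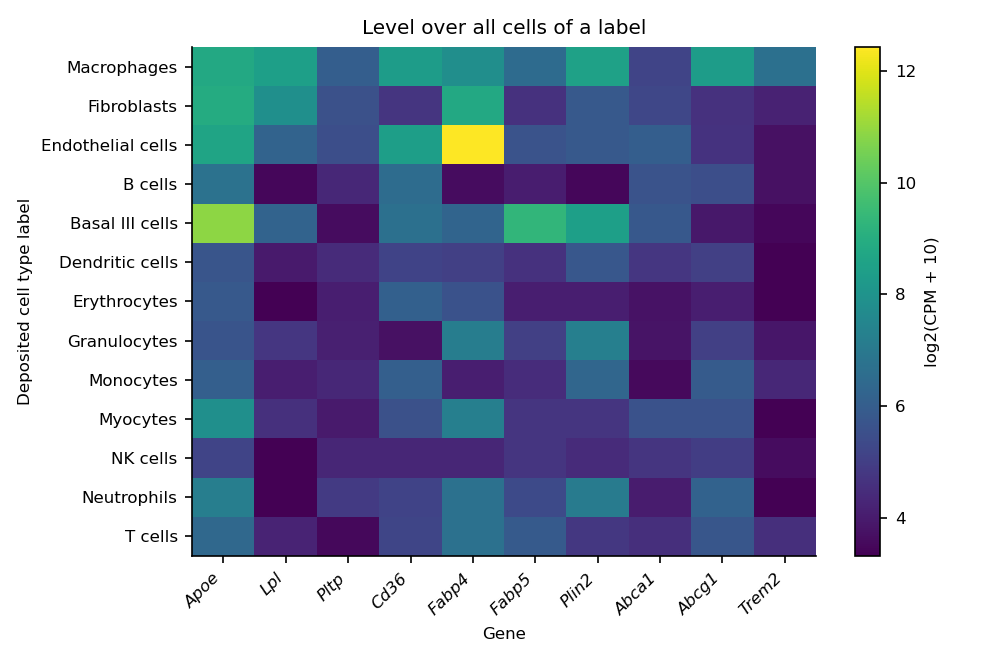
Level of the 10 members (columns) in the 13 deposited cell type labels (rows) over all organs, as log2(CPM + 10) of the summed UMIs. *Fabp4* reaches 5499 CPM in endothelial cells and *Apoe* 1889 CPM in basal III cells, and macrophages have the highest pooled *Abcg1*, *Trem2*, and *Pltp*, with *Plin2* close to that of basal III cells.

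Most molecules of several members lay in 1 label. Endothelial cells held 69.2% of the 4748 *Fabp4* UMIs of labelled cells, and basal III cells 63.9% of the 812 *Fabp5* UMIs. Macrophages held 67.3% of the 156 *Trem2* UMIs and 57.4% of the 627 *Abcg1* UMIs. *Lpl* was split between macrophages with 45.2% and fibroblasts with 37.2% of 852 UMIs. *Abca1*, with 267 UMIs, had 11.2% in macrophages, 15.4% in fibroblasts, and 12.4% in endothelial cells. Within the same mouse and organ, *Fabp4* was higher in endothelial cells than in fibroblasts in 14 of 14 samples and higher than in macrophages in 10 of 11. *Plin2* was higher in macrophages than in fibroblasts in 13 of 14 samples, but *Apoe* only in 7 of 14 and *Lpl* in 5 of 14. The labels were made from the expression of all genes and *Fabp4* was among the study's endothelial markers, so these levels are a description without a test.

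Among 6668 genes with at least 200 UMIs, the pattern of a member over 28 pairs of label and organ with at least 50 cells was compared by Pearson's r of log2(CPM + 10). *Lpl* was most like *Tmbim1* (0.88), *Axl* (0.87), and *Rnase4* (0.85). *Abcg1* was most like *Gm15580* and *Ctsc* (both 0.86) and *Gm6407* (0.84), and *Plin2* like *Por* (0.89), *Sgms2* (0.84), and *Soat1* (0.83), the enzyme that esterifies cholesterol for storage. The genes most like *Fabp4* were *Pmp22* (0.91), *Tm4sf1* (0.86), and *Rbp7* (0.83), and for *Apoe* they were *S100a16* (0.85), *F3*, and *Avpi1* (both 0.84). *Fabp5* was most like *Gm6166* (0.91), *Dmkn* (0.81), and *Apoc1* (0.79), *Cd36* like *Picalm* (0.70), *Ssfa2* (0.68), and *Zc3h12c* (0.63), and *Abca1* like *Pxdc1* (0.73), *Tbc1d10a* (0.68), and *Fubp3* (0.66). The 28 points share libraries and differ in depth, and *Trem2* and *Pltp* had too few UMIs for this.

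Macrophages of the lung had more of the exporter *Abcg1*, the droplet protein *Plin2*, and the scavenger receptor *Cd36* and less *Apoe* than those of joint and muscle, and more of the lipase *Lpl* and less *Fabp4* than those of muscle. The question was which members mark the macrophages of an organ, and it was answered with edgeR's quasi-likelihood test over 10 lung, 7 joint, and 7 muscle sums, averaged over healthy and CIA mice and with p-values adjusted after Benjamini and Hochberg over 913 genes. Of the 10 members, 6 passed the filter on low counts.

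*Abcg1* ranged from 290 to 912 CPM in lung macrophages (median 645), from 0 to 221 CPM in joint (median 125), and from 28.0 to 158 CPM in muscle (median 90.6). The lung mice did not overlap with either of the other organs. The log2 fold change was 2.52 (SE 0.36, adjusted p = 6.57e-06) against joint and 2.58 (SE 0.35, adjusted p = 5.92e-06) against muscle. *Plin2* was at 423 to 703 CPM in lung (median 551), 84.0 to 309 CPM in joint (median 169), and 0 to 318 CPM in muscle (median 196). Again the lung stood apart in every mouse, by a log2 value of 1.72 (SE 0.29, adjusted p = 8.49e-05) against joint and 1.78 (SE 0.30, adjusted p = 6.72e-05) against muscle.

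*Cd36* was at 366 to 895 CPM in lung macrophages (median 681), 56.2 to 363 CPM in joint (median 137), and 0 to 239 CPM in muscle (median 77.0). No lung sample overlapped with the other organs, although the lowest lung value lay next to the highest joint value. The log2 fold change was 1.84 (SE 0.37, adjusted p = 0.000783) against joint and 3.65 (SE 0.49, adjusted p = 4.76e-06) against muscle. In the healthy mice alone the difference from joint was not called (1.52, adjusted p = 0.0978). *Lpl* had the widest range in lung, 58.0 to 1117 CPM (median 422), against 110 to 508 CPM in joint (median 190) and 0 to 308 CPM in muscle (median 95.5). Lung macrophages overlapped with both organs, and the log2 fold change was 3.02 (SE 0.52, adjusted p = 0.000107) against muscle but 1.09 (SE 0.41, adjusted p = 0.0713) against joint, where *Lpl* was not called.

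*Apoe*, the ligand of lipoprotein receptors, went the other way. It was at 34.3 to 526 CPM in lung macrophages (median 137), 125 to 1092 CPM in joint (median 630), and 143 to 1600 CPM in muscle (median 385). The organs overlapped, and lung was lower by a log2 value of -1.77 (SE 0.48, adjusted p = 0.0115) against joint and -1.92 (SE 0.46, adjusted p = 0.00248) against muscle. Neither difference was called in the healthy mice alone (adjusted p = 0.254 and 0.0817), nor were they without mouse H4 (-1.46 against joint, adjusted p = 0.0961) or mouse H7 (-1.03 against muscle, adjusted p = 0.234), respectively. *Fabp4* was at 0 to 195 CPM in lung macrophages (median 106), 0 to 393 CPM in joint (median 171), and 0 to 1957 CPM in muscle (median 117). Mouse S5 with 1957 CPM and mouse H4 with 1156 CPM were far above the other muscle samples. The log2 fold change of lung against muscle was -2.04 (SE 0.67, adjusted p = 0.0229), which was lost in the healthy mice alone (-1.50, adjusted p = 0.387), without mouse H4 (-1.29, adjusted p = 0.234), and with the mouse as a replicate block (-1.64, adjusted p = 0.0844). Against joint it was -0.69 (adjusted p = 0.576). T cells had 195 CPM of *Fabp4* in joint and 107 CPM in muscle, which is near the macrophage medians there. Granulocytes had 91.4 CPM in joint and 516 CPM in muscle, against 183 and 395 CPM in all macrophages pooled there. Muscle erythrocytes had 360 CPM.

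Thus 4 of 6 tested members differed between lung and joint macrophages, where 15.6% of all tested genes did, and 6 of 6 between lung and muscle macrophages, where 26.9% did. *Lpl*, *Cd36*, *Plin2*, and *Abcg1* passed the filter in lung macrophages fitted alone, and *Apoe* was the only member to pass it in joint or in muscle fitted alone. These 4 members thus entered the test through the organ in which they were high, and the counts are not to be read against those shares as support. Between joint and muscle macrophages 0 members and 1.64% of tested genes were called by edgeR, and DESeq2 also called 0 members. The unadjusted p was below 0.05 for 188 of the 913 genes, among them *Lpl* (log2 fold change 1.93, adjusted p = 0.0708) and *Cd36* (1.81, adjusted p = 0.0903), both with higher values in joint. The CIA effect differed between the organs for 0 members and for 1.97% of tested genes in edgeR's interaction test, with 131 genes below an unadjusted p of 0.05 and 0 members called by DESeq2.

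**Figure D2:**
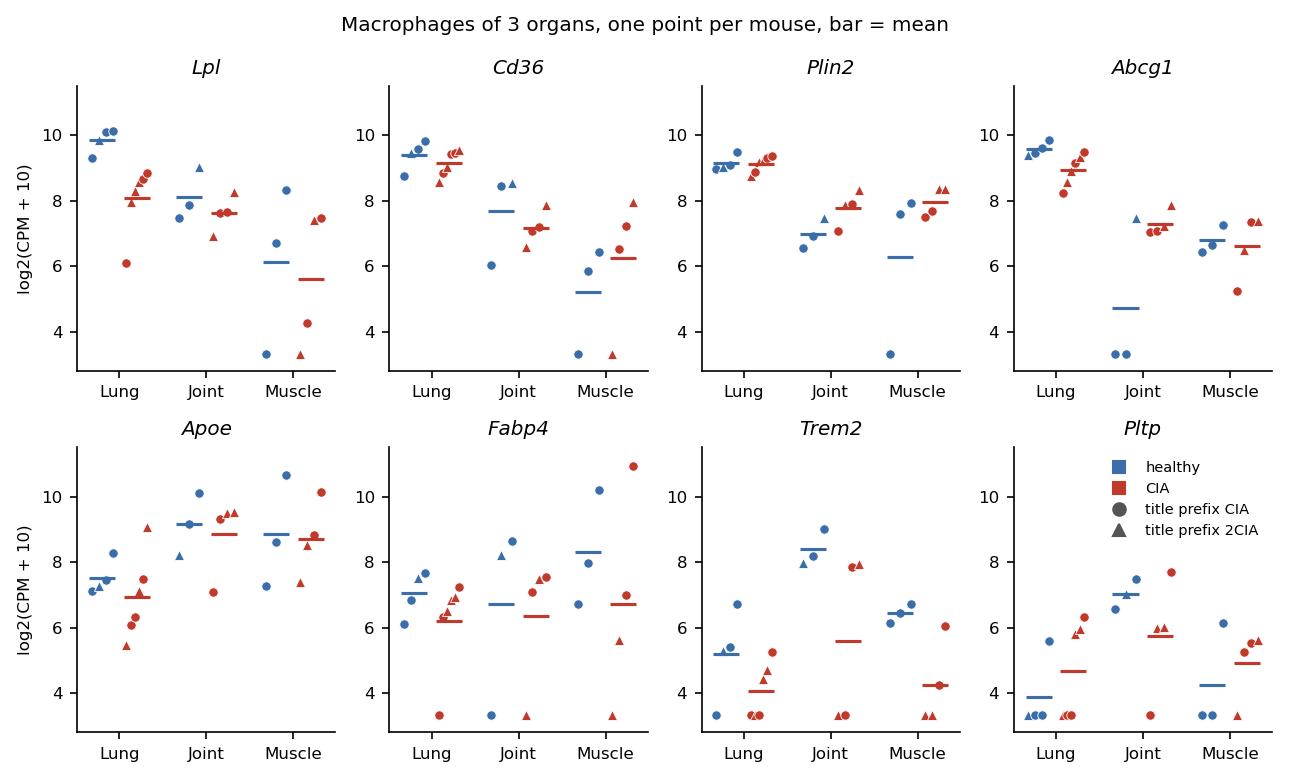
Level of 8 members, as log2(CPM + 10), in macrophages of lung, joint, and muscle, with 1 point per mouse (healthy in blue, CIA in red, circles for the title prefix CIA, triangles for 2CIA) and bars at the group means of these log values. *Abcg1*, *Cd36*, and *Plin2* of the lung lie above all joint and muscle samples, the group means of *Apoe* are lowest in lung, and 1 muscle sample has 1957 CPM of *Fabp4*.

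The receptor gene *Trem2* was removed by the filter on low counts, with 15 UMIs in lung, 72 in joint, and 8 in muscle macrophages of the mice used. Its level was 0 to 96.3 CPM in lung (median 13.8), 0 to 504 CPM in joint (median 234), and 0 to 95.5 CPM in muscle (median 55.9). In the fit of all genes with at least 1 UMI, joint macrophages had more *Trem2* than lung (log2 of lung against joint -2.85, SE 0.55, adjusted p = 7.22e-05) and than muscle (2.65, SE 0.62, adjusted p = 0.0186). The muscle sum of mouse S1, left out for its 9 cells, had 549 CPM, above all joint values. T cells of the joint had 63.3 CPM of *Trem2*. *Pltp* was at 0 to 197 CPM in joint macrophages (median 84.0), with medians of 0 CPM in lung and 28.0 CPM in muscle, and was not called in that fit (-2.09 for lung against joint, adjusted p = 0.0732). *Fabp5* (medians 74.7, 63.9, and 30.2 CPM in lung, joint, and muscle) and *Abca1* (17.7, 22.8, and 0 CPM) also failed the filter, and their samples overlapped between all organs.

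The other genes of the pathway were read from 4 lists. Of the 19 lipoprotein and cholesterol export genes, 4 passed the filter in macrophages, and 3 were higher in lung than in joint: *Lipa*, the lysosomal acid lipase (log2 fold change 2.47, adjusted p = 2.75e-05), *Soat1* (1.82, adjusted p = 0.0135), and *Nceh1*, a cholesterol ester hydrolase (1.62, adjusted p = 0.0213). The healthy joints had only 2 *Soat1* and 4 *Nceh1* UMIs, and in CIA mice the means of lung and joint were 369 and 295 CPM for *Soat1* and 286 and 230 CPM for *Nceh1*, with overlap. *Lipa* was also the only one called against muscle (2.29, adjusted p = 3.90e-05). With the organs fitted alone, 4 export genes passed the filter in lung, 1 in joint, and 1 in muscle. Most thus entered the test through the lung, and these counts are not to be read as support beside all tested genes. Of all tested genes, 15.6% were called between lung and joint, 26.9% between lung and muscle, and 1.64% between joint and muscle. Of the 11 genes of TREM2 partners and lipid-associated macrophages, 8 were tested. The lysosomal proteases *Ctsd* (1.39, adjusted p = 0.00328) and *Ctsl* (0.99, adjusted p = 0.0463) and the tetraspanin *Cd9* (0.78, adjusted p = 0.0165) were higher in lung than in joint. In CIA mice *Ctsl* overlapped, with means of 472 CPM in lung and 432 CPM in joint. So did *Ctsd*, at 316 to 754 CPM in lung and 110 to 425 CPM in joint. *Cd9* overlapped in healthy mice, at 1223 to 1498 CPM in lung and 730 to 1513 CPM in joint. Against muscle, lung was higher in *Spp1*, which encodes osteopontin (2.69, adjusted p = 0.00145), *Cd9* (2.39, adjusted p = 1.65e-07), and *Ctsd* (1.46, adjusted p = 0.00134), and joint was higher than muscle in *Cd9* (1.62, adjusted p = 0.000914). The median log2 fold change of the members tested was 1.40 for lung against joint and 2.18 for lung against muscle, and that of all genes tested was 0.029 and 0.019, with the same limit from the filter. At most 1 of the 22 genes of fatty acid uptake and droplets and 1 of the 14 genes of sterol synthesis passed the filter in any comparison, and 0 of these were called. The adjusted p-values are those of edgeR.

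In lung macrophages of arthritic mice *Lpl* was lower than in healthy mice. *Lpl* was at 917 CPM in H3, 1117 CPM in H4, 627 CPM in H6, and 1075 CPM in H7. In the 6 CIA mice it was at 58.0 CPM at the lowest, 337 CPM at the median, and 451 CPM at the highest. All CIA mice lay below all healthy mice, with means of 934 ± 222 CPM (SD, 4 mice) and 303 ± 140 CPM (SD, 6 mice). *Lpl* fell by 1.72 on the log2 scale (SE 0.33, edgeR adjusted p = 0.00322, DESeq2 adjusted p = 7.24e-05). Among the mice of the prefix CIA alone, 3 healthy and 3 arthritic, the log2 fold change was -1.55 and was not called (adjusted p = 0.142). The counts behind this were 202 *Lpl* UMIs in healthy and 75 in CIA mice.

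The other members tested in lung macrophages did not pass the threshold. *Abcg1* was at 659, 770, 686, and 912 CPM in H3, H4, H6, and H7, and at 290 to 702 CPM in CIA mice (median 512). The groups overlapped in mouse S6 only, and the log2 fold change was -0.69 (SE 0.28, adjusted p = 0.192). *Cd36* was at 418 CPM at the lowest in healthy and at 366 CPM at the lowest in CIA mice, with a log2 fold change of -0.44 (SE 0.30, adjusted p = 0.512). For *Plin2* it was -0.15 (SE 0.25, adjusted p = 0.838), with means of 561 ± 96.5 CPM in 4 healthy and 550 ± 88.4 CPM in 6 CIA mice. Thus 1 of 4 tested members was called, where 6.51% of tested genes were. *Apoe*, with 36 UMIs in healthy and 30 in CIA mice, and the 5 other members were below the filter.

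**Figure D3:**
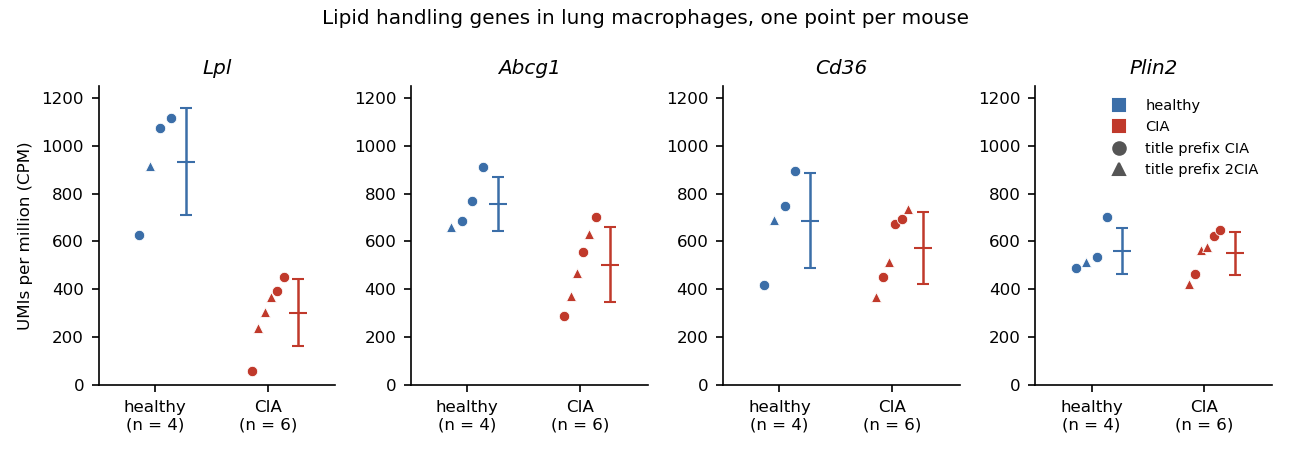
CPM of *Lpl*, *Abcg1*, *Cd36*, and *Plin2* in lung macrophages of 4 healthy and 6 CIA mice, 1 point per mouse, with mean and SD. For *Lpl* the CIA mice lie between 58.0 and 451 CPM, below the healthy mice at 627 to 1117 CPM, and for the other genes the groups overlap.

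From the lists, *Cd9* (1223 to 1498 CPM in 4 healthy and 503 to 736 CPM in 6 CIA mice) and *Spp1* (746 to 1242 and 158 to 762 CPM) were also lower in lung macrophages of CIA mice, by log2 values of -1.25 (SE 0.22, adjusted p = 0.00137) and -1.31 (SE 0.36, adjusted p = 0.0343). These were 2 of 8 tested genes of the TREM2 list, where 6.51% of all tested genes were called. Of the cholesterol export list, 0 of 4 tested genes were called by edgeR.

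Levels of marker genes within the lung macrophage label differed between healthy and CIA mice as well. The summed level of 7 alveolar macrophage markers was 1663 to 2801 CPM in healthy and 698 to 1074 CPM in CIA mice, without overlap. Of these, *Marco* was at 0 in all mice, and *Chil3* (log2 fold change -1.07, adjusted p = 0.0162) and *Ear2* (-1.78, adjusted p = 0.00137) fell in the same fit. The 4 granulocyte markers were at 356 to 545 CPM in healthy and 580 to 14700 CPM in CIA mice, all 4 with UMIs in both groups, with *S100a8* higher by 4.19 (adjusted p = 0.000391) and *S100a9* by 2.49 (adjusted p = 0.00733). A UMI of an alveolar marker was found in 40.9% to 52.4% of the macrophages of a healthy mouse and in 15.6% to 28.8% of a CIA mouse, at medians of 624 and 568 UMIs per cell. After thinning of each cell to 300 UMIs, which left out 0 cells, the shares were 29.5% to 39.2% and 9.38% to 19.6%. In lung T cells, which should lack these markers, 2 of 43 healthy cells (4.65%) and 1 of 35 CIA cells (2.86%) had such a UMI, at medians of 523 and 531 UMIs.

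In cells with an alveolar marker UMI, *Lpl* was at 1159 to 1805 CPM in the healthy mice and 259 to 1364 CPM in the CIA mice, and the groups overlapped. The lowest value was that of S8, with 1 *Lpl* UMI in 5 cells. In cells without such a UMI, *Lpl* was at 117 to 459 CPM in healthy and 0 to 193 CPM in CIA mice, with overlap in mouse S3 only. The range was lower in CIA mice in both kinds of cells. *Cd36* of the healthy mice was at 366 to 1062 CPM in cells with and at 312 to 827 CPM in cells without such a UMI. The part that the share of alveolar macrophages had in the lower *Lpl* of the summed label was not tested.

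**Figure D4:**
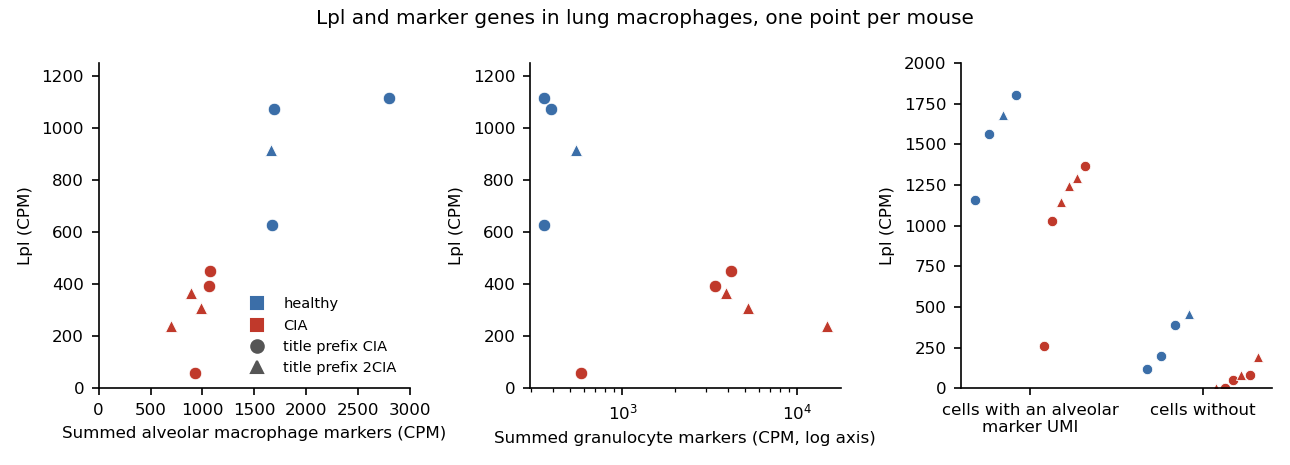
*Lpl* CPM in lung macrophages of each mouse against the summed CPM of alveolar macrophage markers and of granulocyte markers (log axis), and *Lpl* CPM in cells with and without an alveolar marker UMI. Healthy mice lie at 1663 CPM of alveolar markers or more and CIA mice at 1074 CPM or less. Within both kinds of cells the range of *Lpl* lies lower in CIA mice, with overlap between the groups.

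Some cells of this label also carried epithelial RNA. Of the 677 lung macrophages, 52 (29 from healthy and 23 from CIA mice) had over 10% of their UMIs from 5 genes of the alveolar epithelium, and 8 cells lay between 5% and 20%. *Lpl* was at 20.6 CPM in these 52 cells and at 682 CPM in the other 625. *Abcg1* was at 20.6 and 680 CPM and *Plin2* at 185 and 611 CPM. *Cd36* differed little, with 597 CPM in the 52 cells and 623 CPM in the others. Without the 52 cells, the log2 fold change of *Lpl* was -1.83 (SE 0.34, adjusted p = 0.00112). The lung T cells had 0 *Lpl* UMIs in 78 cells, which allows up to 79.5 CPM by an exact Poisson interval, but 216 CPM of *Cd36* and 129 CPM of *Abcg1*.

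In joint macrophages, *Apoe* was the only member tested between CIA and healthy mice. It was at 290, 1092, and 562 CPM in H3, H4, and H7, and at 735, 717, 630, and 125 CPM in S1, S3, S5, and S8. The groups overlapped (log2 fold change -0.06, SE 0.53, edgeR adjusted p = 0.981), so that 0 members were called, against 10.3% of tested genes. DESeq2 called 0 members too, and 57 of 273 genes had an unadjusted p below 0.05 in edgeR. *Trem2*, which was below the filter, was at 242, 504, and 281 CPM in H3, H4, and H7, and at 234, 0, 220, and 0 CPM in S1, S3, S5, and S8. All CIA mice lay below the healthy mice, and how many of all genes separate in this way was not counted. The values rest on 5 to 10 *Trem2* UMIs in 17 to 27 macrophages of each healthy mouse, 22 and 29 UMIs in S1 and S5, and 0 UMIs in the 27 and 21 macrophages of S3 and S8. From the TREM2 list *Cd9* was lower in CIA (730 to 1513 CPM in 3 healthy and 251 to 501 CPM in 4 CIA mice, log2 fold change -1.50, SE 0.38, adjusted p = 0.0370). The granulocyte markers were at 924 to 8229 CPM in these macrophages of healthy and at 33192 to 59263 CPM of CIA mice, and their part in these values was not tested.

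In muscle macrophages, *Apoe* was again the only member tested. It was at 385, 143, and 1600 CPM in H4, H6, and H7 and at 355, 159, 1118, and 441 CPM in S2, S3, S5, and S6. The spread within each group was larger than the difference (log2 fold change -0.38, SE 0.75, adjusted p = 0.934). Thus 0 members were called by edgeR and by DESeq2, where 0.183% of tested genes were, and 33 of 545 genes had an unadjusted p below 0.05. *Fabp4* of muscle macrophages was at 1156, 95.5, and 242 CPM in H4, H6, and H7, and at 39.4, 0, 1957, and 117 CPM in S2, S3, S5, and S6. The 2 high mice were 1 of each group. *Trem2* of muscle macrophages was at 77.0, 95.5, and 60.4 CPM in the healthy and 0, 0, 55.9, and 9.01 CPM in the CIA mice, which was 1 or 2 UMIs per mouse where it was found. The CIA mice lay below the healthy mice, but S1, left out for its 9 cells, had 549 CPM. Here too, the number of all genes that separate was not counted.

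Fibroblasts held *Apoe*, *Lpl*, and *Fabp4*, and muscle fibroblasts had the most of *Lpl* and *Fabp4*. *Lpl* was at 98.3 to 745 CPM in fibroblasts of muscle (8 mice, median 466), 87.4 to 207 CPM of joint (6 mice, median 142), and 0 to 267 CPM of skin (9 mice, median 74.0). One muscle sample, H6 with 1 *Lpl* UMI in 14 cells, overlapped with the other organs. The log2 fold change was -2.17 (SE 0.43, edgeR adjusted p = 0.000545) for skin against muscle and -1.44 (SE 0.40, adjusted p = 0.0355) for joint against muscle. The second was lost with the mouse as a replicate block (-1.51, adjusted p = 0.0744), without the filter on low counts (adjusted p = 0.598), in the healthy mice alone (-0.59, adjusted p = 0.811), and when H3, H4, H7, S1, S3, or S5 was left out. The first was lost in the healthy mice alone (-2.27, adjusted p = 0.0525).

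*Fabp4* was at 68.7 to 1760 CPM in muscle fibroblasts (median 627), 78.0 to 495 CPM in joint (median 251), and 0 to 998 CPM in skin (median 55.6). The organs overlapped, with H4 and S5 of muscle at 1760 and 1680 CPM. The log2 fold change was -2.61 (SE 0.65, adjusted p = 0.00470) for skin against muscle and -1.56 (SE 0.61, adjusted p = 0.166) for joint against muscle. *Cdh5* and *Pecam1* of endothelial cells, in which *Fabp4* is high, were together at 0 to 98.3 CPM in the muscle fibroblasts. Of 6 adipocyte markers 4 were at 0 in CIA and 5 in healthy muscle fibroblasts, *Adipoq* and *Plin1* in both. UMIs of these markers were found only in H4 (2 UMIs, 153 CPM) and S5 (3 UMIs, 15.3 CPM), the mice with the highest *Fabp4*. Muscle T cells had 107 CPM of *Fabp4* and 9.11 CPM of *Lpl*. *Fabp4* was also at 17.9 CPM in muscle B cells, 167 CPM in dendritic cells, 360 CPM in erythrocytes, and 516 CPM in granulocytes. All muscle fibroblasts pooled had 1119 CPM of *Fabp4* and 468 CPM of *Lpl*, and muscle granulocytes had 52.2 CPM of *Lpl*. The part of RNA from other cells in these values was not tested.

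*Apoe* was at 212 to 1153 CPM in skin fibroblasts (median 766), 87.4 to 932 CPM in joint (median 417), and 265 to 1236 CPM in muscle (median 492). All organs overlapped, and the log2 fold change of skin against joint was 0.80 (SE 0.33, adjusted p = 0.0758). Its call depended on the settings, since plain library sizes or RLE factors in place of TMM, DESeq2, and leaving out H7, S1, S2, or S6 each gave a call. Thus 2 of 3 tested members were called between skin and muscle, where 20.7% of tested genes were, 1 of 3 between joint and muscle, where 4.14% were, and 0 of 3 between skin and joint, where 24.3% were. For skin against joint, edgeR gave 422 of 1134 genes with an unadjusted p below 0.05, among them *Apoe*. The other 7 members did not pass the filter. With the organs fitted alone, *Apoe*, *Lpl*, and *Fabp4* passed it in joint, only *Fabp4* in muscle, and only *Apoe* in skin. *Lpl* and *Fabp4* thus did not enter the test through skin, where their medians were lowest. The counts of members called are not to be read against the shares of tested genes as support.

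**Figure D5:**
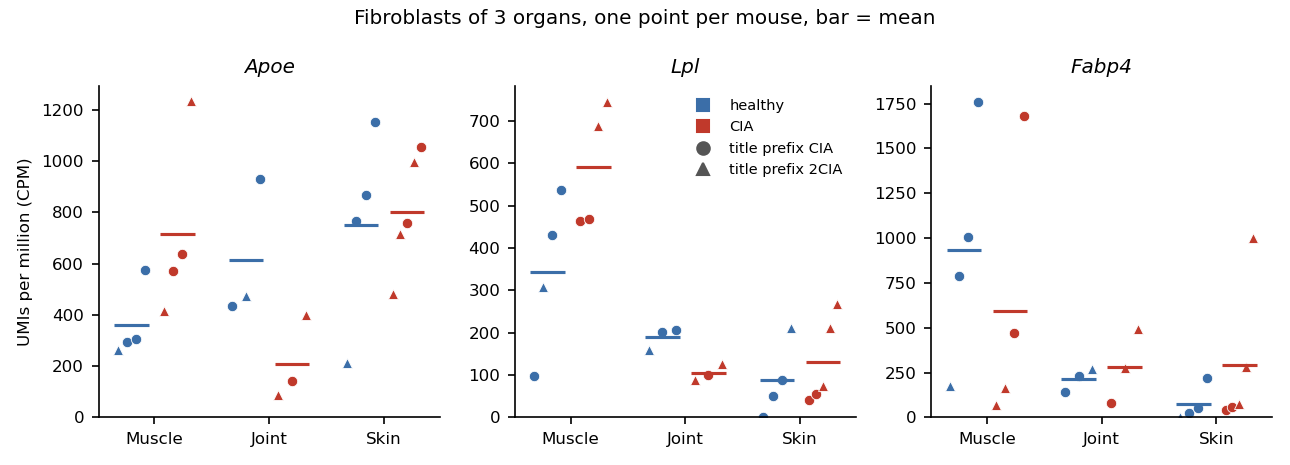
CPM of *Apoe*, *Lpl*, and *Fabp4* in fibroblasts of muscle, joint, and skin, 1 point per mouse (healthy in blue, CIA in red, circles for the prefix CIA, triangles for 2CIA), with bars at the group means. *Lpl* of muscle reaches 745 CPM against at most 267 CPM in the other organs, and *Apoe* overlaps between all organs.

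Of the lists in fibroblasts, *Lrp1*, a receptor for APOE-bearing particles, was lower in skin than in joint (log2 fold change -1.71, adjusted p = 0.000105) and higher in joint than in muscle (1.26, adjusted p = 0.0178), as 1 of 2 tested export genes in each. For the second, the means were 598 CPM in joint and 152 CPM in muscle of healthy mice but 285 and 291 CPM in CIA mice. Of all tested genes, 24.3% were called between skin and joint, 20.7% between skin and muscle, and 4.14% between joint and muscle. With the organs fitted alone, 2 export genes passed the filter in joint, 0 in muscle, and 0 in skin. For the TREM2 list these numbers were 6, 2, and 5. The counts from both lists are not to be read as support beside all tested genes. Of 7 tested genes of the TREM2 list, 2 were lower in skin than in joint, near the share of all genes called there. These were the protease *Ctsb* (-1.31, adjusted p = 0.00301) and *Spp1*, which had 818 UMIs in 3 CIA and 158 UMIs in 3 healthy joints but 6 UMIs in the 9 skin samples. *Lgals3*, which encodes galectin-3, was higher in skin (2.26, adjusted p = 4.38e-05) and in joint (1.72, adjusted p = 0.00634) than in muscle, and so was *Cd9* (0.88, adjusted p = 0.0119, and 1.31, adjusted p = 0.00306). The third gene higher in skin than in muscle was *Cd63* (1.38, adjusted p = 0.000118), and the third higher in joint than in muscle was *Spp1* (4.17, adjusted p = 0.00575). The median log2 fold change of the members tested was -2.17 for skin against muscle, -1.44 for joint against muscle, and -0.73 for skin against joint. That of all genes tested was -0.034, 0.10, and -0.11, with the same limit from the filter.

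Between CIA and healthy mice, joint fibroblasts had lower *Apoe* in each arthritic mouse, but the difference did not pass the adjustment. *Apoe* was at 475, 434, and 932 CPM in H3, H4, and H7, and at 401, 87.4, and 142 CPM in S1, S3, and S5. The groups did not overlap, S1 being close to H4 (log2 fold change -1.52, SE 0.56, edgeR adjusted p = 0.209). *Lpl* was at 158, 201, and 207 CPM in the healthy mice and 126, 87.4, and 99.3 CPM in the CIA mice, also without overlap (-0.90, SE 0.44, adjusted p = 0.334). *Fabp4* was at 269, 139, and 233 CPM and at 275, 495, and 78.0 CPM, so that the groups overlapped (0.30, SE 0.64, adjusted p = 0.849). Mouse S6, left out for its 9 joint fibroblasts, had 418 CPM of *Apoe*, just below H4, and 470 CPM of *Lpl*, above all healthy mice. With S6 the *Lpl* groups would thus overlap. The number of all genes that separate with so few mice was not counted, so the orders of *Apoe* and *Lpl* are a description. The 4 granulocyte markers were together at 4606, 1393, and 5900 CPM in these fibroblasts of healthy mice and at 13231, 29491, and 20638 CPM of CIA mice. The 6 adipocyte markers were at 0 in the healthy mice and in S5, and at 93.2 and 612 CPM in S1 and S3. The part of these markers in the values was not tested. Thus 0 of 3 tested members were called by edgeR and by DESeq2, where 1.68% of tested genes were, and 180 of 1014 genes had an unadjusted p below 0.05.

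In muscle fibroblasts only *Fabp4* was tested. It was at 176, 1760, 786, and 1004 CPM in H3, H4, H6, and H7 and at 165, 68.7, 1680, and 468 CPM in S1, S2, S5, and S6, with overlap (-0.20, SE 0.78, adjusted p = 0.962). In skin fibroblasts only *Apoe* was tested, at 212, 1153, 869, and 766 CPM in H3, H4, H6, and H7 and at 715, 480, 998, 1057, and 759 CPM in S1, S2, S3, S5, and S8. The groups overlapped fully (0.05, SE 0.38, adjusted p = 0.957). In both organs 0 members and 0% of tested genes were called by edgeR, with 11 of 173 and 31 of 349 genes below an unadjusted p of 0.05, and DESeq2 called 0 members. The CIA effect differed between organs in 0 of 3 members and in 0.176% of tested genes in edgeR's interaction test. *Apoe* came closest there, with adjusted p = 0.307. DESeq2 called 0 members in that test, and 83 of 1134 genes had an unadjusted p below 0.05 in edgeR.

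Endothelial cells were the main site of *Fabp4*. In joint it was at 6944 and 8935 CPM in H3 and H4 and at 6072, 3225, 2405, and 5282 CPM in S1, S3, S5, and S6. In muscle it was at 7508, 7656, 5922, and 11457 CPM in H3, H4, H6, and H7, and at 13814 and 4737 CPM in S1 and S5. In joint the CIA mice lay below the healthy mice, and in muscle S1 lay above and S5 below all healthy mice. In 3 mice, skin endothelial cells had 1309 to 11267 CPM.

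*Apoe* of endothelial cells had opposite orders in both organs. In joint it was at 511 and 894 CPM in H3 and H4 and at 368, 293, 179, and 46.3 CPM in S1, S3, S5, and S6. In muscle it was at 153, 330, 144, and 183 CPM in H3, H4, H6, and H7 and at 671 and 632 CPM in S1 and S5. The CIA mice were thus all lower in joint and both higher in muscle, without overlap in either. *Lpl* of joint also separated but went the other way, at 0 CPM in the healthy and 40.9 to 185 CPM in the CIA mice (15 UMIs). In muscle *Fabp5* separated, with 2 UMIs in CIA and 5 in healthy mice. How many of all genes separate with so few mice was not counted, so these orders and that of *Fabp4* in joint are a description. Markers of other cells varied between these sums as well. The fibroblast markers were at 3319 to 5616 CPM in healthy and 6450 to 13188 CPM in CIA joints, and the granulocyte markers at 5617 to 29545 and 6394 to 121020 CPM. In muscle, the fibroblast markers were at 1963 to 3850 CPM in healthy and 2414 to 8585 CPM in CIA mice, and the erythrocyte markers reached 138144 CPM in a healthy mouse. The part of these markers in the *Apoe* values was not tested. *Cd36* was at 579 and 255 CPM in healthy and 337, 0, 122, and 139 CPM in CIA joints, and at 919, 375, 433, and 275 CPM in healthy and 805 and 371 CPM in CIA muscle, with overlap in both.

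With 2 healthy mice in joint and 2 CIA mice in muscle, neither organ was tested on its own, and the difference between their CIA effects was not tested. In a fit over both organs, added after the data were seen, the averaged CIA effect was -0.03 for *Apoe* (adjusted p = 0.988), -0.57 for *Cd36* (adjusted p = 0.945), and -0.37 for *Fabp4* (adjusted p = 0.979), and 0 of 3 members and 0% of tested genes were called by edgeR. Of the 394 genes, 26 had an unadjusted p below 0.05, and DESeq2 called 0 members. Between joint and muscle endothelial cells 0 of 3 members and 0% of tested genes were called by edgeR, with 47 of 394 genes below an unadjusted p of 0.05 and 0 members called by DESeq2. The log2 fold changes of joint against muscle were -0.88 for *Cd36* (SE 0.48, adjusted p = 0.460), -0.68 for *Fabp4* (SE 0.41, adjusted p = 0.508), and -0.30 for *Apoe* (SE 0.48, adjusted p = 0.837). *Lpl*, which in muscle acts on the endothelial surface but is made by other cells, was at 0 to 230 CPM in muscle and 0 to 185 CPM in joint endothelial cells.

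Spleen monocytes, the circulating relatives of macrophages, had low levels of all 10 members. *Cd36* (median 54.9 CPM), *Abcg1* (42.6 CPM), and *Apoe* (63.6 CPM) were found in most of 10 mice, whereas *Lpl* had 4 UMIs in all. No member passed the filter there, so none was tested, and the 6.36% of tested genes called by edgeR (78 of 456 genes had an unadjusted p below 0.05) has no count of members beside it. From the TREM2 list *Lgals3* was higher in CIA (51.5 to 271 CPM in 4 healthy and 320 to 1368 CPM in 6 CIA mice, log2 fold change 2.08, SE 0.50, edgeR adjusted p = 0.0354). In the same monocytes the 4 granulocyte markers were at 722 to 1021 CPM in healthy and 2679 to 24005 CPM in CIA mice, and the 10 macrophage markers at 3638 to 7429 and 9187 to 16449 CPM. Neither overlapped between the groups, and their part in the *Lgals3* difference was not tested.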

How the data were processed

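UMI counts per gene and cell were deposited by the authors, who processed Seq-Well reads with bcl2fastq, Picard, the Drop-seq tools, and STAR on GRCm38 and left the counts unnormalized. They labelled cells from denoised counts, Leiden clusters, and markers. Here, counts were summed per mouse, organ, and label, and 0 columns belonged to no sample. The 1144 unlabelled cells were left out, and doublets were not removed. Each comparison was fitted by quasi-likelihood in edgeR 4.0.16, run under R 4.3.3 (TMM, filterByExpr, adjusted p below 0.05) with at least 3 mice per group, and organs in 1 model with the disease. Genes under the filter were read from a fit of all genes with at least 1 UMI. DESeq2 1.42.0 and Python 3.11.15 were used for alternatives and tables, and the fits were tested on simulated data.

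Organs of the same mouse share its name in the titles and so pair the samples. Deviations of sums of the same mouse had a median r of 0.03 in macrophages, -0.02 in fibroblasts, and -0.17 in endothelial cells. Samples of separate mice were the replicates.

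Named were all 10 members, at most the 3 called genes with the largest fold change per list and comparison, the 3 genes most like each member, and markers. Members and lists were chosen with earlier results of these data known. Other settings tried were other normalizations, no filter, DESeq2, 5 or 20 cells per mouse, the title prefix as a term or the prefix CIA alone, the healthy mice alone, the mouse as a block, and leaving out each mouse.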

Additional observations from a re-analysis of the deposited data

Results flagged for a closer look

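The comparisons left out 1144 cells without a deposited label. All 10 members had UMIs in these cells above the 3 UMIs that a count of 0 allows (4.27 CPM). They held 277 UMIs of *Apoe* (394 CPM), 325 of *Fabp4* (462 CPM), 156 of *Fabp5* (222 CPM), and 145 of *Plin2* (206 CPM). The scavenger receptor gene *Cd36* had 73 UMIs (104 CPM), *Lpl* 53 (75.4 CPM), and *Abcg1* 41 (58.3 CPM). *Abca1* had 22 UMIs (31.3 CPM), *Pltp* 11 (15.6 CPM), and *Trem2* 8 (11.4 CPM). In 14 groups of 4 to 10 mice, 0 samples stood apart from the others by Dixon's test, where chance gives about 1 in 20.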

How the results depend on the processing

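Of 236 alternative values of the 14 called changes of members, 217 kept the call, 19 lost it, and 0 reversed. Among the mice of the prefix CIA alone, 0 members were called in lung macrophages. In the healthy mice alone, 2 members were called between lung and joint macrophages, 1 between skin and muscle fibroblasts, and 0 between joint and muscle fibroblasts. The last was also 0 with the mouse as a replicate block and without the filter on low counts. Leaving out each mouse gave 0 to 1 member for joint against muscle fibroblasts, for skin against joint fibroblasts (1 without H7, S1, S2, or S6), and for joint against muscle macrophages (*Lpl* without S5). Without the filter, 1 member, *Trem2*, was called between joint and muscle macrophages. With RLE factors, plain library size, or DESeq2, 1 member, *Apoe*, was called between skin and joint fibroblasts. With the mouse as a block, the *Fabp4* difference between lung and muscle macrophages and the *Lpl* difference between joint and muscle fibroblasts were lost, and no other call of a member was. Leaving out the lung cells rich in epithelial RNA, chosen after the data were seen, gave *Lpl* of lung macrophages as -1.83 and 5 members between lung and joint, *Lpl* being added. Apart from the settings' own smaller numbers of mice or genes, the cause of these changes was not tested. Endothelial cells of joint and of muscle were not tested between CIA and healthy mice on their own, since fewer than 3 mice of a group had enough cells. Sums held as few as 5347 UMIs, so that members under the filter could differ by amounts not detectable at this depth.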
